A study of Peromyscus maniculatus with 16 samples.

Results

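The core genes of the circadian clock were examined in the liver of deer mice kept on regular diet or on high fat diet (HFD). The genes were chosen by symbol, and 9 of the 10 listed symbols had a row among the 16910 genes of the count table. These were Arntl, Clock, Npas2, Per2, Per3, Cry1, Nr1d1, Nr1d2 and Dbp. No row of the table carried the symbol Per1, which was not analysed here. All 9 genes were among the 12639 genes that reached 0.5 CPM (counts scaled to a common library size) in at least 1 animal and were tested.

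The circadian clock is a transcriptional feedback loop that runs in almost every cell with a period of about a day. The protein of Arntl, also called BMAL1, pairs with CLOCK or with its relative NPAS2 and activates genes through E-box elements, among them the Per and Cry genes, Nr1d1, Nr1d2 and Dbp. PER and CRY proteins then inhibit the activators, while the nuclear receptors REV-ERB alpha and beta, the products of Nr1d1 and Nr1d2, repress Arntl. In mouse liver the Arntl transcript and the Dbp transcript therefore peak at opposite times of day, and the loop drives rhythms in the metabolism of glucose, lipids and bile acids.

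The control group (C) consisted of 6 males on regular diet. Of the 10 animals on HFD, a sucrose-containing diet with 58 kcal% fat given for 28 weeks, 5 males had no histological steatosis (NS) and 5 animals had steatosis (S). All animals were 10 months old at the end. The deer mice are outbred, and the labels name no engineered allele. The labels assign 13 animals to BW, a closed colony of the subspecies bairdii, and 3 to SM2, a stock of the subspecies sonoriensis, with 1 SM2 male in each group (C animal 10876, NS animal 10865, S animal 10880). The 3 females (35982, 35955 and 35990) were all BW animals of S, so that sex and steatosis overlap, and the only other males of S were 36016 and 10880. The hour at which each liver was collected is not given in the sources used here, and its part in any of the values below was not tested.

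Total counts lay between 4640733 and 11349971 per animal, and S animals 35982 and 36016 had the lowest totals. Of 5 hepatocyte markers 3 were in the table, and their summed level was 14780 to 27200 CPM in C, 27930 to 46330 in NS and 17730 to 34940 in S. The adipocyte markers Adipoq, Plin1 and Lep together stayed at or below 0.244 CPM in every animal. The summed stellate cell markers had a median of 341.5 CPM in C, 226.9 in NS and 210.2 in S, with ranges of 215.1 to 450.3, 135.5 to 313.7 and 149.4 to 2263 CPM. Among them Col1a1 was called higher in S than in C (log2 fold change 5.57, edgeR adjusted p = 0.0397) and Dcn lower (-1.05, edgeR adjusted p = 0.0354). Col1a1 ran from 3.71 to 2058 CPM in S (mean 417.2, SD 917) and from 5.00 to 17.0 CPM in C. Its high mean in S thus rested on the highest animal. Of the 3 hepatocyte markers, Fabp1 was called higher in S (log2 fold change 1.42, edgeR adjusted p = 0.0927). Both Fabp1 and Apoa1 were called higher in HFD against C (1.56 and 1.15, edgeR adjusted p = 0.0928 and 0.0391). Ttr went the other way below the 2-fold limit, at -0.66 in S vs C (edgeR adjusted p = 0.0772) and -0.43 in HFD against C (edgeR adjusted p = 0.211). EdgeR called 4.06% of all genes in S vs C and 0.894% in HFD against C. The part of these markers in the values of the clock genes was not tested. The summed neutrophil markers S100a8 and S100a9 were lower in S (4.19 to 19.2 CPM) than in C (25.8 to 73.7 CPM), with 8.59 to 52.8 CPM in NS. Summed markers of Kupffer cells, endothelium, cholangiocytes, lymphocytes and pancreas had overlapping ranges in the 3 groups. Because RNA came from whole liver, fewer cells of a type and less RNA per cell cannot be told apart.

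Expression is given below as CPM after TMM normalization, a scale on which animals can be compared for the same gene. Differences between groups were tested with edgeR's quasi-likelihood test across all 12639 genes. Calls required a fold change of at least 2 and, after Benjamini-Hochberg adjustment, a p under 0.1.

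Arntl, the activator without which the loop does not run, had the lowest levels in C, where the lowest animal had 0.222 CPM, the median was 1.94 CPM and the highest animal had 3.44 CPM. In NS, Arntl was 11.7 CPM in SM2 animal 10865, followed by 4.25 in 35987, 3.12 in 35937, 1.33 in 35930 and 0.765 in 35963. In S it was 12.55 CPM in SM2 animal 10880, 7.25 in 35990, 6.71 in 35955, 6.19 in 36016 and 1.67 in 35982. Thus 4 of 5 S animals exceeded every control, whereas S animal 35982 lay within the range of the controls and the groups overlapped. Of these 4, 35990 and 35955 were females and 10880 was the SM2 male, while all controls were males. The mean was 2.00 ± 1.13 CPM (SD, n = 6) in C, 4.24 ± 4.41 (n = 5) in NS and 6.87 ± 3.87 (n = 5) in S. The order of the means was C, NS and S, and neither C and NS nor NS and S were told apart.

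The log2 fold change of Arntl in S vs C was 1.79 (SE 0.64, 95% interval 0.44 to 3.13), with an edgeR adjusted p of 0.107, just outside the limit. The call depended on how the animals were modelled. With stock as a covariate, where 5.21% of all genes were called, the log2 fold change was 1.73 with an edgeR adjusted p of 0.0473, and DESeq2 gave an adjusted p of 0.0495. Over the 26 alternatives the adjusted p ranged from 0.0473 to 0.189, and 9 of them called Arntl higher in S. Among these, leaving out NS animal 10865, 35963 or 35930 or S animal 35982 gave edgeR adjusted p-values of 0.0675, 0.0967, 0.0978 and 0.0935. With sex as a covariate and in males alone Arntl was not called, and sex and steatosis cannot be told apart here. Arntl counts were low, from 2 to 103 per animal, so that counting error adds to the spread.

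Npas2, which can take the place of CLOCK as a partner of BMAL1, followed a similar order. In C its lowest value was 1.33 CPM, the median 2.37 and the highest 7.28, the last in the SM2 animal. In NS, SM2 animal 10865 had 14.5 CPM, and the BW animals had 5.53 in 35987, 3.80 in 35937, 1.66 in 35963 and 1.21 in 35930. In S, animals 10880 and 36016 both had 13.9 CPM, followed by 5.67 in 35955, 3.34 in 35990 and 1.48 in 35982. Both groups on HFD contained animals above and animals within the range of the controls. The log2 fold change was 1.13 (SE 0.65) in S vs C and 0.62 (SE 0.65) in NS vs C, and neither passed edgeR's test (adjusted p = 0.295 and 0.847).

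Clock, the other partner of BMAL1, ran from 6.36 to 19.5 CPM in C (median 13.3). In NS it was 22.9 CPM in 35987, 18.2 in 35937, 11.5 in 10865, 9.82 in 35963 and 6.79 in 35930. In S it was 37.5 CPM in 36016, 25.2 in 35982, 15.8 in 35955, 14.9 in 35990 and 10.8 in 10880. The highest values of Clock in S were therefore those of the 2 S animals with the lowest total counts. Its log2 fold change in S vs C was 0.77 (95% interval -0.01 to 1.55, edgeR adjusted p = 0.215), and without these animals it was 0.18. Over all animals, r with the log2 total count was -0.72 for Clock and -0.59 for Per2. With group means removed these were -0.67 and -0.55. Nr1d1 had 0.45, and the other clock genes lay between -0.35 (Nr1d2) and -0.099 (Cry1). The part of the total count in these values was not tested.

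The Per and Cry genes encode the inhibitors of the loop. Per2 ran from 3.51 to 8.46 CPM in C, with a median of 5.81. In NS it was 25.6 CPM in 35963, 11.7 in 10865, 10.3 in 35937, 9.94 in 35930 and 3.06 in 35987. In S it was 19.7 CPM in 36016, 15.7 in 10880, 14.8 in 35982, 5.76 in 35955 and 4.58 in 35990. Hence 7 of the 10 animals on HFD were above the highest control, but the remaining 3 were within or below the control range. The means were 5.74 ± 1.95 CPM (n = 6) in C, 12.1 ± 8.26 (n = 5) in NS and 12.1 ± 6.62 (n = 5) in S.

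The log2 fold change of Per2 was 1.06 (95% interval 0.11 to 2.02) in S vs C and 1.08 (0.13 to 2.03) in NS vs C. For both groups on HFD against C it was 1.07 (SE 0.40). None of the 3 values passed edgeR's test over all genes, with adjusted p-values of 0.166, 0.580 and 0.180. In the males alone Per2 was called higher in S (log2 fold change 1.62, edgeR adjusted p = 0.0884), with only 2 animals left in S and with 5.44% of all genes called, and DESeq2 called it higher on HFD (adjusted p = 0.0810). Of the 26 alternatives for S vs C, 2 called Per2. Without the 2 S animals of the lowest total counts, which had 19.7 and 14.8 CPM, its log2 fold change was 0.59 (edgeR adjusted p = 0.572).

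Per3 had a mean of 12.3 ± 3.92 CPM (n = 6) in C, 12.6 ± 7.22 (n = 5) in NS and 15.04 ± 12.6 (n = 5) in S. The spread in S came from animal 35982 at 37.6 CPM, while the other 4 S animals were between 8.72 and 9.82 CPM. Its log2 fold change in S vs C was 0.27 (SE 0.42, edgeR adjusted p = 0.730).

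The highest Cry1 values in NS and in S were those of the SM2 animals. In C the lowest value was 6.93 CPM, the median 17.7 and the highest 24.3. In NS it was 48.8 CPM in SM2 animal 10865, 17.7 in 35987, 17.0 in 35937, 10.9 in 35930 and 4.97 in 35963. In S it was 46.8 CPM in SM2 animal 10880, 8.45 in 36016, 6.28 in 35955, 6.12 in 35982 and 2.96 in 35990. Of the 4 BW animals of S, 3 were thus below every control, and the SM2 animal was above every control. Over all animals the log2 fold change in S vs C was -0.17 (95% interval -1.52 to 1.17, edgeR adjusted p = 0.897). In BW animals alone Cry1 was called lower in S, at a log2 fold change of -1.43 (edgeR adjusted p = 0.0740), where 4.95% of all genes were called. Of the 4 BW animals of S 3 were the females, and with sex as a covariate or in males alone the log2 fold change in S vs C was 0.80 and was not called, so that sex and steatosis cannot be told apart for this call.

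Nr1d1, Nr1d2 and Dbp are direct targets of BMAL1. Nr1d1 had nearly the same mean in the 3 groups, at 108.1 ± 21.8 CPM in C (n = 6), 106.3 ± 29.3 in NS (n = 5) and 98.9 ± 49.0 in S (n = 5). The log2 fold change in S vs C was -0.13 with a 95% interval from -0.71 to 0.46, and in NS vs C it was -0.02 with an interval from -0.60 to 0.56. Within S it ranged from 48.1 CPM in 36016 to 152.9 in 10880.

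Nr1d2 averaged 44.5 ± 9.38 CPM in C (n = 6), against 34.7 ± 9.64 in NS (n = 5) and 42.7 ± 16.8 in S (n = 5). Its values in the SM2 animals on HFD were 18.2 CPM in 10865 and 20.8 in 10880, below the other 14 animals, which had between 34.3 and 64.3 CPM. The log2 fold change was -0.06 (SE 0.26) in S vs C and -0.36 (SE 0.26) in NS vs C, and neither was called.

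Dbp encodes a PAR bZIP activator that carries the rhythm to genes of metabolism. Its lowest value in C was 28.0 CPM, the median 78.2 and the highest 133.8. In NS it was 162.1 CPM in 35963, 81.7 in 35930, 77.0 in 10865, 68.2 in 35937 and 59.9 in 35987. In S it was 145.3 CPM in 35982, 73.2 in 35990, 72.4 in 35955, 69.6 in 36016 and 48.9 in 10880. The groups overlapped widely, and the log2 fold change in S vs C was 0.01 with a 95% interval from -0.80 to 0.82.

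**Figure D1:**
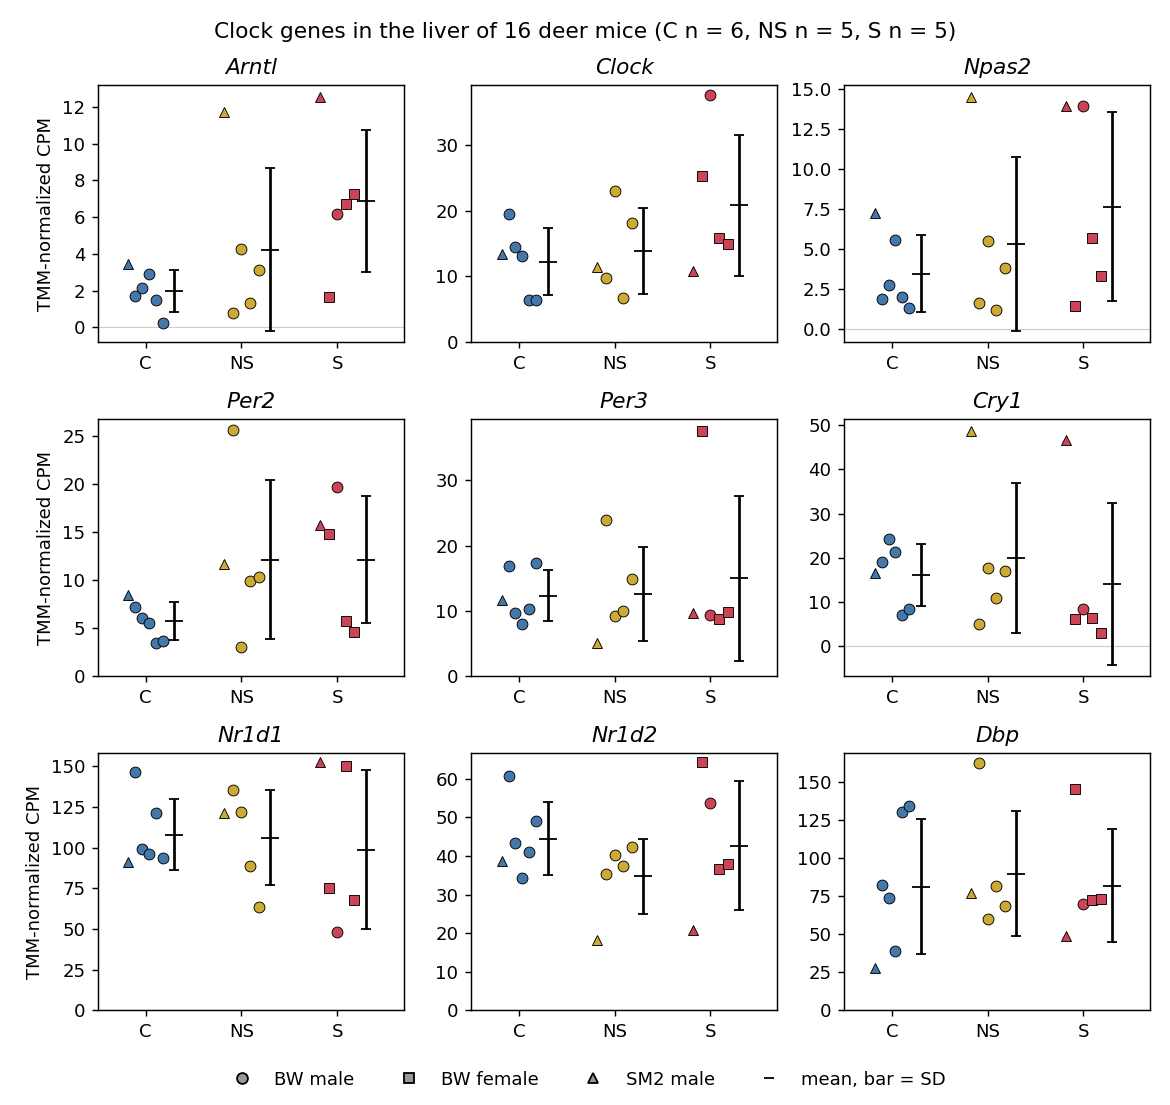
TMM-normalized CPM (vertical axis) of the 9 clock genes in every animal, by group (horizontal axis), with circles for BW males, squares for BW females and triangles for SM2 males. The horizontal dash is the mean and its bar the SD, for n = 6 (C), 5 (NS) and 5 (S). The triangles of NS and S are the highest points of Arntl and Cry1 in their groups and the lowest points of Nr1d2.

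EdgeR called 0 of 9 clock genes in S vs C, where it called 4.06% of all tested genes. For NS vs C the count was also 0 of 9 (0.0712% of all genes), as it was between S and NS (0.00791%) and for both HFD groups against C (0.894%). At an unadjusted p under 0.05 the counts were 2 (Arntl and Per2), 1 (Per2), 0 and 2 (Arntl and Per2), beside 23.8, 8.29, 10.9 and 17.9% of all genes. DESeq2 called 1 clock gene in S vs C (4.81% of the genes to which it gave an adjusted p), 2 for HFD against C (2.23%), 0 in NS vs C (0.527%) and 0 between S and NS (0.691%). With edgeR at any fold the counts were 0 in S vs C, NS vs C, S vs NS and HFD against C, beside 10.8, 0.0791, 0.00791 and 2.67% of all genes. The groups overlapped for all 9 genes in each comparison, while 4.19, 0.989, 1.18 and 0.348% of all genes had groups that did not overlap. The 9 genes had a median log2 fold change of 0.27 with steatosis against C, 0.19 without steatosis against C and 0.24 between both HFD groups, beside 0.10, 0.01 and 0.04 over all tested genes. In S vs NS the largest value was that of Arntl, 0.70 (SE 0.65). These comparisons share animals, and the intervals of Arntl, Npas2, Per2 and Cry1 include differences of more than 2-fold for either HFD group against C.

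More clock genes were called between the stocks than between the groups of diet and steatosis, and the same held for all genes. The counts for the groups came from a fit without stock. With stock in the fit, Arntl was called in S vs C, where 5.21% of all genes were called. In a fit with group and stock, 3 of 9 clock genes were called higher in the 3 SM2 than in the 13 BW animals, and 0 were called lower, while edgeR called 10.8% of all genes in either direction. Cry1 was 16.4 CPM in SM2 animal 10876 on regular diet, 48.8 in 10865 and 46.8 in 10880, against 2.96 to 24.3 CPM (median 8.45) in BW. Its log2 difference was 1.91 (SE 0.45, edgeR adjusted p = 0.00809). Npas2 was 7.28, 14.5 and 13.9 CPM in the same animals against 1.21 to 13.9 (median 2.75) in BW, a log2 difference of 1.66 (SE 0.47, edgeR adjusted p = 0.0260). Arntl was 3.44, 11.7 and 12.55 CPM against 0.222 to 7.25 (median 2.17) in BW, a log2 difference of 1.56 (SE 0.47, edgeR adjusted p = 0.0350). For all 3 genes, and for the other 6, the stocks overlapped (6.81% of all genes did not). SM2 animal 10876 on regular diet lay within the BW range in all 3, and for Npas2 BW animal 36016 reached the level of SM2 animal 10880.

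Nr1d2 was lower in SM2, at 38.6, 18.2 and 20.8 CPM against 34.3 to 64.3 in BW. The log2 difference of -0.79 (SE 0.22, edgeR adjusted p = 0.0204) was below the 2-fold limit, and 21.8% of all genes passed at any fold. Dbp had a log2 difference of -0.89 (SE 0.39), which was not called (edgeR adjusted p = 0.136). The calls rest on few animals. Without NS animal 10865 only Cry1 was called, with Arntl at an edgeR adjusted p of 0.301 and Npas2 at 0.214, and without S animal 10880 Cry1 was not called (edgeR adjusted p = 0.173). Without C animal 10876, Nr1d2 was also called, at a log2 difference of -1.15.

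With the SM2 animals split by diet, Cry1 averaged 47.8 CPM on HFD against 16.4 on regular diet, whereas in BW it averaged 9.29 on HFD against 16.0. For Nr1d2 the corresponding values were 19.5 against 38.6 in SM2 and 43.5 against 45.7 in BW. In a fit with an interaction of stock and diet, added after the data were seen, the interaction was 2.46 on the log2 scale for Cry1 and -0.91 for Nr1d2. Neither passed edgeR's test (adjusted p = 0.492 and 0.540), 0 of 9 members were called where 0.0712% of all genes were, and the design holds a single SM2 animal on regular diet. Markers of other liver cells also differed between the stocks, in both directions, where edgeR called 10.8% of all genes. Of 4 Kupffer cell markers, Vsig4 (log2 difference -1.49) and Marco (-1.38) were called lower in SM2 and Adgre1 (1.81) higher. Adgre1 was low in both stocks, with means of 0.941 CPM in SM2 and 0.282 in BW. Of 5 endothelial markers, Pecam1 (-1.80) and Kdr (-1.07) were called lower and Lyve1 (2.76) higher. Krt7, a cholangiocyte marker, was called lower (-1.04) and Cela1, a pancreas marker, higher (1.79), while edgeR called 0 markers of hepatocytes, stellate cells, lymphocytes and neutrophils. Their part in the difference of the clock genes was not tested.

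**Figure D2:**
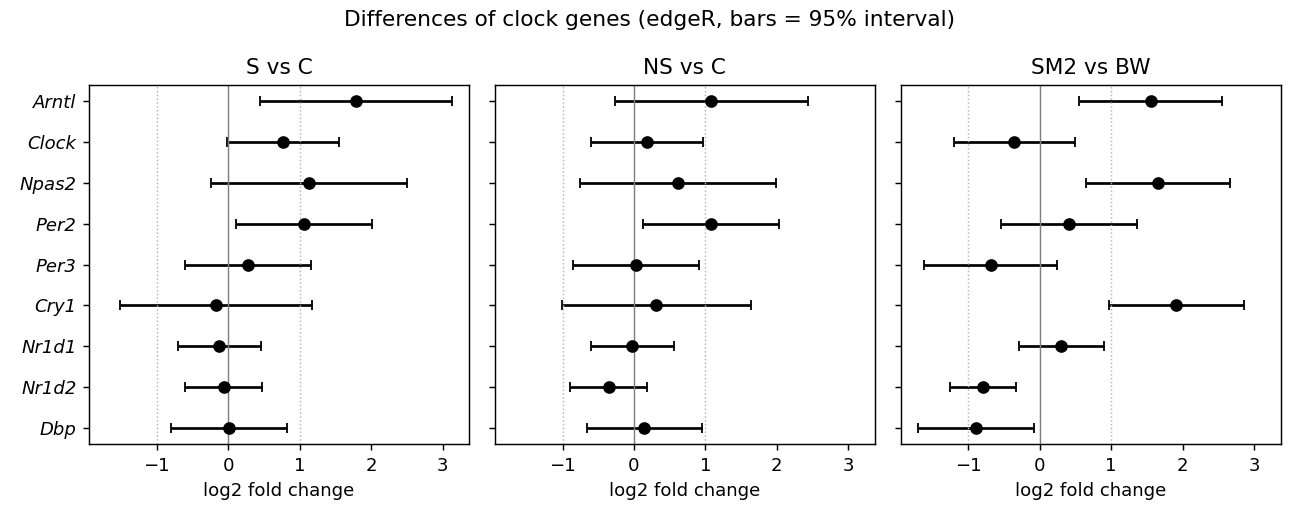
Log2 fold change (horizontal axis) of each clock gene (vertical axis) for S vs C, for NS vs C and for SM2 vs BW, as points with 95% intervals from edgeR. Dotted lines mark a 2-fold change. Arntl and Per2 have intervals above 0 in S vs C but did not pass the adjusted test, and Cry1, Npas2 and Arntl are the genes called in SM2 vs BW.

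Clock genes varied among animals of the same group more than most genes. The pooled SD within groups of log2(CPM + 1) had a median of 0.710 over the 9 genes, beside 0.349 over all tested genes. It was highest for Cry1 (1.06), Npas2 (0.99) and Arntl (0.88), the 97.4th, 96.7th and 95.2th percentile of all tested genes. Per2, Dbp and Per3 were also above the 90th percentile, followed by Clock at 88.2, Nr1d1 at 77.4 and Nr1d2 at 72.6. In BW animals alone the median was 0.683 beside 0.312, and Nr1d2 was at the 43.7th percentile.

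This variation was shared by some of the genes. Pearson's r and Spearman's rho of log2(CPM + 1) were calculated over the 16 animals for the 36 pairs of clock genes, with two-sided permutation tests of 100000 resamples. Arntl and Npas2 went together across the animals, with r = 0.872 (permutation p = 1e-05, the smallest the test can give, adjusted p = 0.00036) and rho = 0.871 (permutation p = 3e-05, adjusted p = 0.00108). The relation held with group means removed (r = 0.876), within BW animals (r = 0.796, n = 13), within males (r = 0.938, n = 13) and without the 2 animals farthest from the median of Arntl (r = 0.837). Leaving out any single animal gave an r between 0.842 and 0.922. It was the only pair of 36 that passed an adjusted p of 0.05 with Pearson's r, while 5 pairs passed with rho.

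With the mean of each group removed, and permutation within groups, 8 of the 36 pairs passed. These were 3 positive pairs among Arntl, Npas2 and Cry1 and 5 negative pairs of Arntl or Npas2 with Per3, Dbp or Nr1d2. Arntl ran opposite to Per3 (r = -0.82, permutation p = 0.00169, adjusted p = 0.0152), to Dbp (r = -0.73, permutation p = 0.00058, adjusted p = 0.0104) and to Nr1d2 (r = -0.72, permutation p = 0.00463, adjusted p = 0.0287). Npas2 ran opposite to Per3 (r = -0.71, adjusted permutation p = 0.0287) and Dbp (r = -0.71, adjusted permutation p = 0.0128). Cry1 went with Arntl (r = 0.72, adjusted permutation p = 0.0351) and with Npas2 (r = 0.72, adjusted permutation p = 0.0287). In the uncentred values, r was -0.64 for Arntl and Per3 (rho = -0.70), -0.55 for Arntl and Dbp (rho = -0.67) and -0.61 for Arntl and Nr1d2 (rho = -0.42).

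Values without the SM2 animals were as follows. In the 13 BW animals the uncentred r of Arntl was -0.56 with Per3 and -0.64 with Dbp, but -0.18 with Nr1d2 and -0.10 with Cry1, and that of Npas2 with Cry1 was 0.14. The group-centred r in BW was -0.81 for Arntl and Per3, -0.80 for Arntl and Dbp, -0.43 for Arntl and Nr1d2, 0.53 for Arntl and Cry1 and 0.55 for Npas2 and Cry1. The count of pairs that passed in uncentred values was 1 when 13 of the 16 animals were left out in turn, and 2 without NS animal 35930, 2 without S animal 35982 and 8 without S animal 36016, which had high Npas2 and high Clock. Clock, Per2 and Nr1d1 took no part in any pair that passed with all animals. Nr1d1 and Nr1d2, whose products act alike, had r = -0.41 (permutation p = 0.110, adjusted p = 0.263) and rho = -0.43.

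**Figure D3:**
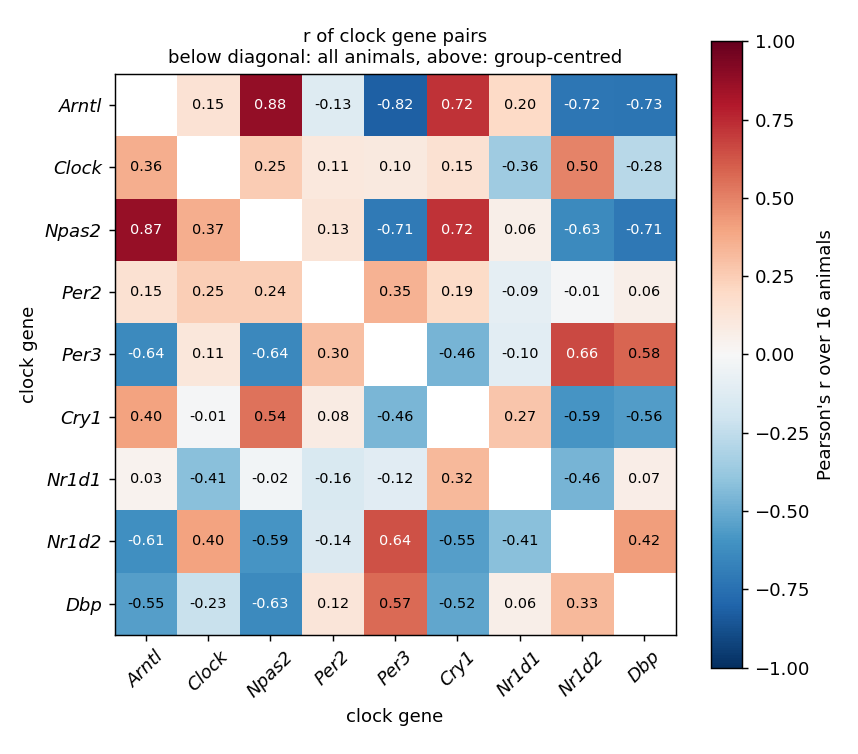
Pearson's r of log2(CPM + 1) over 16 animals for each pair of clock genes, named on both axes, with all animals below the diagonal and group-centred values above it. The color runs from -1 (blue) to 1 (red). Arntl and Npas2 form the strongest positive pair, 0.87 below and 0.88 above the diagonal, and both are negative with Per3, Nr1d2 and Dbp.

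Genes known to follow the clock in liver were then set beside Arntl. Of the 18 tested genes of this list, 8 had a group-centred r of at least 0.6 in size with Arntl over the 16 animals, 7 of them negative and 1 positive, beside 9.59% of the 8175 genes with a mean of at least 5 CPM. These r are descriptions without a test. They were -0.88 for Por, the electron donor of microsomal P450 enzymes, -0.86 for Wee1, an inhibitor of mitotic entry under E-box control, -0.83 for Gys2, the glycogen synthase of liver, and -0.81 for Upp2, a uridine phosphorylase. Tsku, a secreted leucine-rich repeat protein, had -0.78, Ppara, the fatty acid sensing nuclear receptor, -0.77, and Coq10b, a coenzyme Q binding protein, -0.70. Insig2, which retains the sterol sensor of the cell in the endoplasmic reticulum, had 0.70. In BW animals alone the group-centred r was -0.78 for Por, -0.75 for Wee1, -0.71 for Gys2, -0.60 for Upp2 and 0.64 for Insig2. It was smaller than 0.6 in size for Ppara (-0.58), Tsku (-0.53) and Coq10b (-0.41). The share of all genes at this limit was not taken for BW animals alone.

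Wee1 shows the range. It was 86.4 CPM in control 36007, which had the lowest Arntl of all animals, and 1.64 CPM in NS animal 10865, which had 11.7 CPM of Arntl. Among NS animals, Wee1 was 57.0 CPM in 35930, 40.6 in 35963, 18.2 in 35937 and 5.04 in 35987, the reverse of their order in Arntl except for the first 2. In S it was 52.7 CPM in 36016, 36.5 in 35982, 8.39 in 35990, 8.11 in 35955 and 6.82 in 10880. S animal 36016 stood apart, with both Arntl and Wee1 high.

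Upp2 was 330.9 CPM in 10865 and 346.0 in 10880, the SM2 animals on HFD, against 712.3 to 3500 in all other animals. Of the output genes, 5 were called lower and 1 higher in SM2 than in BW, where edgeR called 10.8% of all genes. The lower genes were Upp2 (log2 difference -2.06), Wee1 (-2.12), Gys2 (-1.32), Coq10b (-1.47) and Tsku (-1.56), and Tfrc, the transferrin receptor, was higher (1.31). In S vs C, Gys2 (log2 fold change -1.25, edgeR adjusted p = 0.0646) and Por (-1.13, edgeR adjusted p = 0.0836) were called lower and 0 of the 18 were called higher, beside 4.06% of all genes. Por was between 590.4 and 1264 CPM in S and between 1321 and 3620 CPM in C, without overlap. EdgeR called 0 of the 18 without steatosis against C, 0 between both HFD groups and 0 for HFD against C. In the same order, edgeR called 0.0712, 0.00791 and 0.894% of all genes. At an unadjusted p under 0.05 the counts were 2, 1 and 6 of 18, beside 8.29, 10.9 and 17.9% of all genes, and DESeq2 results were not taken for the lists.

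**Figure D4:**
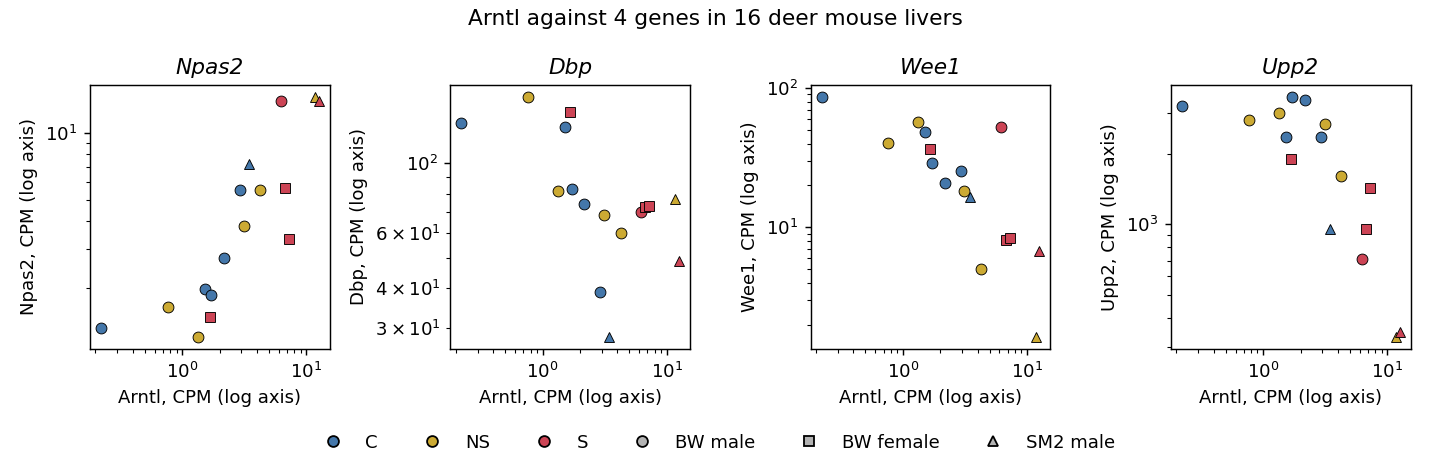
CPM of Npas2, Dbp, Wee1 and Upp2 (vertical log axes) against CPM of Arntl (horizontal log axis), 1 point per animal, colored by group, with triangles for SM2 males and squares for BW females. Npas2 increases with Arntl (r = 0.872 on log2(CPM + 1)), and Dbp, Wee1 and Upp2 decrease with group-centred r of -0.73, -0.86 and -0.81.

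The genes most like Arntl among the 8175 were Stap2 (group-centred r = 0.87), Capn1 (0.85) and Stat5a (0.85), and the most opposite were Pxdc1 (-0.90), Pnpla8 (-0.88) and Por (-0.88). For Dbp they were Anapc7 (0.92) and Washc2 (0.80) on the positive side and Mxi1 (-0.87), Extl2 (-0.80) and Plec (-0.78) on the negative side. Each is an r over 16 animals chosen for its size from 8175 genes. An r of at least 0.6 in size was held by 9.59% of the genes with Arntl and by 2.67% with Dbp.

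Of 13 other transcription factors and repressors of the clock, 1 was called in S vs C, where 4.06% of all genes were, and 1 in HFD against C, where 0.894% were. Timeless, a partner of the replication fork related to a fly clock gene, was called higher in S (7.23 against 2.80 CPM in C, log2 fold change 1.37, edgeR adjusted p = 0.0339) and in HFD against C (log2 fold change 1.08, edgeR adjusted p = 0.0809). Nono, an RNA-binding partner of PER proteins, was higher in S below the 2-fold limit (log2 fold change 0.49, edgeR adjusted p = 0.0550). Of 15 tested kinases, phosphatases and ubiquitin ligases of the clock, edgeR called 0 at 2-fold in S vs C, with 1 at an unadjusted p under 0.05, beside 4.06 and 23.8% of all genes. Csnk1e, a kinase of PER proteins, was higher in S at less than 2-fold (24.6 against 13.8 CPM, log2 fold change 0.83, edgeR adjusted p = 0.0896), and Csnk2a2 was not called in any comparison (log2 fold change -0.28 in HFD against C, edgeR adjusted p = 0.249).

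Genes of signals that can set the liver clock were also counted. Of 7 glucocorticoid-responsive genes, edgeR called 2 in S vs C, with 3 at an unadjusted p under 0.05, beside 4.06 and 23.8% of all genes. Sgk1 (38.7 against 16.1 CPM, log2 fold change 1.26, edgeR adjusted p = 0.0427) and Dusp1 (180.6 against 61.2 CPM, log2 fold change 1.56, edgeR adjusted p = 0.0590) were both higher in S. Zbtb16 was lower and not called (log2 fold change -1.67, edgeR adjusted p = 0.117). The median log2 fold change of the 7 genes was -0.04, beside 0.10 over all tested genes. Of 10 immediate early genes edgeR called 0 in S vs C, with 0 at an unadjusted p under 0.05, beside 4.06 and 23.8% of all genes (Fosb had a log2 fold change of 2.48 and an adjusted p of 0.214). Of 6 temperature-responsive genes edgeR called 0 in S vs C, with 1 at an unadjusted p under 0.05, beside the same shares (Hspb1 had a log2 fold change of -1.43 and an adjusted p of 0.147). In SM2 vs BW, Jun (log2 difference -2.24), Btg2 (-1.62) and Cebpd (-1.52) were called lower, where edgeR called 10.8% of all genes. Cirbp, a cold-inducible RNA-binding protein, was higher below 2-fold (0.70, edgeR adjusted p = 0.0426), where 21.8% of all genes passed at any fold. The part of these genes in the differences of the clock genes was not tested. With Arntl, 0 of the 13 other clock factors, 0 of the immediate early genes, 0 of the temperature-responsive genes, 1 of the 15 kinases and ligases (Btrc, r = 0.64) and 1 of the 7 glucocorticoid-responsive genes (Tat, r = -0.61) had a group-centred r of at least 0.6 in size.

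Coordination was described by Pc, the index used in the study, which is the correlation between the r values of a gene with all other genes within a group and its r values within another group. A Pc near 1 means that a gene kept its partners and a negative Pc that they were inverted. The deposited counts are not scaled for the total count, which ran from 4640733 to 10892425 in S. Differences in total count between animals therefore enter each r on this scale, and their part in Pc was not tested. On the deposited counts the 9 clock genes had a median Pc of 0.190 for S against C, 0.0788 for NS against C and 0.252 for S against NS, beside 0.201, 0.102 and 0.174 over all genes. No clock gene was below -0.2, a limit passed by 2.6, 2.92 and 3.53% of all genes in the same order. Clock (-0.154) and Per3 (-0.0880) had the lowest values of S vs C on this scale, and on CPM scaled by the total count they had 0.253 and 0.165. Per3 (-0.0734) had the lowest of NS vs C and had 0.0581 on CPM. On CPM the median Pc in S vs C was 0.165 for the clock genes, above the 0.105 of all genes, whereas on the deposited counts it was below the median of all genes. The study reported its lowest average Pc for S against C. Its averages were taken over its own sets of transcripts, whereas medians are given here, so the values are not like for like. On the deposited counts, which are not scaled for the total count, the median of all genes was highest for S against C. On CPM this median was lowest for S against C, at 0.105, with 0.154 for NS against C and 0.166 for S against NS. The order of the comparisons on CPM was that of the study's averages. The paper does not name the scale of expression used for Pc. For S against C, Pc was obtained here for 13434 genes on CPM and for 13431 on the deposited counts. Of these, 813 and 349 were below -0.2. The number of genes on CPM is the one the paper gives for S against C. Its number below the limit lies between those found here, nearer to that on CPM.

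In S vs NS, Nr1d2 (Pc = 0.505, the 98.8th percentile of all genes) and Cry1 (0.447, the 96.6th percentile) had the highest values among the clock genes. When single animals were left out, Nr1d2 had Pc between 0.0691 and 0.523 and Cry1 between -0.136 and 0.486, and in BW animals alone the values were 0.146 and 0.148. The other clock genes also had a lower Pc in BW animals alone, among them Arntl (0.0769 against 0.299) and Npas2 (0.0764 against 0.390). The fall was thus not particular to Nr1d2 and Cry1. The part of the SM2 animals and of the smaller groups in it was not tested. On CPM, Nr1d1 was lowest, with a Pc of -0.238 for S against C, where 6.05% of all genes were below -0.2, against 0.253 on the deposited counts. Each r within a group rests on 5 or 6 animals, and these values are descriptions without a test.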

How the data were processed

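Liver RNA of 16 animals was sequenced as paired reads after a directional library kit. Per the labels and methods, the authors aligned reads to HU_Pman_2.1 with STAR 2.7.2. Uniquely mapped reads were counted by featureCounts, and raw counts by symbol were deposited. The strand setting is not given in the sources used here, so reads of overlapping genes cannot be told apart. In RefSeq's newer assembly these were Uts2 and LOC143272076 with Per3, and LOC143269995 with Npas2. The symbol Arntl had no match there, so its overlaps were not checked. Groups, stock and sex were taken from the labels. The clock genes and gene lists were chosen with earlier results of these data known. Ttr and Zbtb16 are given beside called genes of their lists. All members were named, genes of the clock-related lists when called or among the lowest p of their list, cell type markers when called, and the 3 genes most like and most opposite to Arntl and Dbp. Of these, 1 gene is not reported here.

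Counts were tested with edgeR 4.0.16 (limma 3.58.1, R 4.3.3) after TMM normalization, in 1 fit of all animals without covariates, for genes of at least 0.5 CPM in at least 1 animal. Stock was tested in a fit with group. Correlations, Pc and spread used numpy 2.4.6, scipy 1.17.1 and pandas 2.3.3 (Python 3.11.15) on log2(CPM + 1) or, for Pc, on the deposited counts. Figures used matplotlib 3.10.9. The scripts were tested on simulated data. Covariates, BW or male animals alone, only the groups compared, pseudocount 4, other filters, RLE size factors, DESeq2 1.42.0 and leaving out each animal were tried as alternatives. Leaving out the 2 S animals with the lowest totals and the interaction were added after the data were seen. Totals of 4640733 to 11349971 counts leave Arntl at 2 to 103 counts. Animals are separate replicates. Sequences of the genes were not used here.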

Additional observations from a re-analysis of the deposited data

Results flagged for a closer look

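Among 27 sets of values (9 clock genes in 3 groups), 6 held an animal far from the others of its group by Dixon's criterion, which chance gives in about 1 of 20 sets. Per3 was 37.6 CPM in S animal 35982. Dbp was 145.3 CPM in the same animal and 162.1 CPM in NS animal 35963. Cry1 was 48.8 CPM in NS animal 10865 and 46.8 CPM in S animal 10880, both SM2. Nr1d2 was 18.2 CPM in NS animal 10865. In S animal 35982 and NS animal 35963, high Dbp stood beside the lowest Arntl of their groups (1.67 and 0.765 CPM), and in the SM2 animals on HFD high Cry1 stood beside the highest Arntl (11.7 and 12.55 CPM).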

How the results depend on the processing

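The count of 0 clock genes called in S vs C became 1 with filterByExpr, stock as covariate, only the groups compared and DESeq2 (Arntl), 1 with sex as covariate and in males alone (Per2) and 2 in BW animals alone (Arntl and Cry1). For HFD against C it became 1 with sex as covariate (Per2) and 2 with DESeq2 (Arntl and Per2). The cause was not tested. Correlated pairs numbered 8 with group-centred values, 5 with rho and 4 without the 2 S animals with the lowest totals. The median spread was 0.567 with pseudocount 4, and the median Pc of NS vs C was -0.0505 in BW animals. In S vs C, uncalled log2 fold changes changed sign: to -0.37, 0.80 and -0.46 for Per3, Cry1 and Dbp with sex as covariate, to -0.37, 0.80 and -0.46 in males alone, to 0.076 and -0.033 for Nr1d2 and Dbp in BW animals, and to -0.40, 0.21, 0.19 and -0.33 for Per3, Cry1, Nr1d1 and Dbp without the 2 S animals with the lowest totals.

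With each animal left out in turn, clock genes called in S vs C ranged from 0 to 1, those called for stock from 1 to 4 and correlated pairs from 1 to 8. The log2 fold change in S vs C ranged from -1.44 to 0.092 for Cry1, -0.30 to 0.21 for Dbp, -0.34 to 0.045 for Nr1d1, -0.26 to 0.11 for Nr1d2 and -0.39 to 0.42 for Per3, and in NS vs C from -0.18 to 0.99 for Npas2. No paired analysis was possible because each animal belongs to a single group and gave a single sample. Groups of 5 or 6 animals, low Arntl and Npas2 counts, sex within S and the hour of collection limit these comparisons.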
